A study of Mus musculus with 30 samples.

Results

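This report follows 10 genes of the machinery that binds and engulfs prey in photoreceptor-facing epithelium, read there and in macrophages: *Itgav*, *Itgb5*, *Itgb3*, *Cd81*, *Mfge8*, *Ptk2*, *Dock1*, *Rac1*, *Gulp1* and *Myo7a*. They were chosen by symbol for their role in outer segment uptake, and each matched 1 row of the 55573 genes in both tables. RNA was sequenced from the retinal pigment epithelium (RPE) of mice at postnatal day 25 (P25) and from bone marrow-derived macrophages (BMDMs) grown for 7 days from the marrow of adult mice in medium conditioned by L929 cells. RPE libraries came from 6 C57BL/6 (B6 WT) and 6 *Mertk*-/-V1 animals and from 3 each of *Mertk*-/-V2 and *Mertk*-/-V3, and BMDM libraries from 3 animals of each genotype, 30 libraries in all. *Mertk*-/-V1 mice lack exon 17 of *Mertk*, were made in embryonic stem cells of another mouse strain, keep the neomycin cassette and were backcrossed to C57BL/6J. A stretch of chromosome 2 around *Mertk* still comes from the strain of those stem cells. *Mertk*-/-V2 mice lack exon 18 after germline excision of a floxed allele by a tamoxifen-inducible Cre that was later bred out, and carry a part of the C57BL/6NJ genome. *Mertk*-/-V3 mice lost exons 3 and 4 to CRISPR/Cas9 in C57BL/6NJ eggs and carry C57BL/6J and C57BL/6NJ sequence. The question was whether these genes change with the loss of *Mertk*, and whether they do so in 1 line or in all.

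Every day, RPE cells take up the tips that rod and cone photoreceptors shed. The integrin heterodimer of the subunits ITGAV and ITGB5 tethers the shed tip at the apical face of the RPE, with the bridging protein MFGE8 binding both the integrin and the phosphatidylserine exposed on the prey. The receptor tyrosine kinase MERTK drives the internalization that follows. Focal adhesion kinase, encoded by *Ptk2*, signals from the integrin towards MERTK, and DOCK1 activates the GTPase RAC1, which remodels actin around the prey. The engulfment adaptor GULP1 acts in a parallel route with LRP1 and MEGF10, the tetraspanin CD81 works with the integrin at the cell surface, and the motor myosin VIIa carries the ingested phagosome inwards.

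Values are normalized counts, which are the reads on a gene divided by 1 size factor per library, and libraries held 14137666 to 34124049 reads on genes in RPE and 16629659 to 25653814 in BMDMs. *Mertk* itself was counted at 2638 to 3924 in B6 WT RPE, 919 to 1717 in *Mertk*-/-V1, 444 to 1106 in *Mertk*-/-V3 and 3565 to 5311 in *Mertk*-/-V2. In BMDMs the ranges, in the same order, were 2414 to 2881, 847 to 883, 651 to 723 and 3532 to 3589, so reads over the whole gene did not fall in the libraries labelled *Mertk*-/-V2. All 13 RPE markers were present in every RPE group and all 9 macrophage markers in every BMDM group. The RPE preparation also held transcripts of other cells. Over the 18 RPE libraries, fibroblast markers summed to 19222 to 50998, Müller glia markers, led by *Glul*, to 45064 to 66664, and endothelial markers to 3511 to 9592. RPE levels below are thus those of the preparation and not of pigment epithelium alone. Rod transcripts were present too. In 3 of the 18 RPE libraries, replicates 5 and 6 of *Mertk*-/-V1 and replicate 1 of *Mertk*-/-V3, the 10 rod markers summed to 402864 to 856662 and the 13 RPE markers to 274175 to 368764. The other 15 libraries held 34423 to 335806 and 560007 to 1020260. These 3 libraries are called rod-rich below, and RPE results are given with and without them. In bulk samples such as these, fewer cells of a type and less RNA per cell cannot be told apart.

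The 10 genes lie on 7 chromosomes of GRCm38, and all are protein coding. *Itgav* (ENSMUSG00000027087, chr2:83724397-83806916, forward strand) is the only one on chromosome 2, which also holds *Mertk* (chr2:128698956-128802894). *Cd81*, *Mfge8*, *Dock1* and *Myo7a* lie on chromosome 7. Exons of *Rac1* overlap those of *Daglb*, a protein-coding gene on the opposite strand with 8.76% of the level of *Rac1* in RPE and 15% in BMDMs. As the use of strand in the counting is not given in the sources used here, reads on the shared exons may be wrongly assigned. These percentages are of whole genes, and the reads on the shared exons were not counted, so the uncertainty of *Rac1* is not known. The opposite-strand transcript at *Cd81*, *R74862*, came to 1.17% and 0.482% of the level of *Cd81*. Windows of 250 bases before the RefSeq start (GRCm38.p6) were at hand for 7 of the 10 genes, with 2 starts for *Myo7a*. The following stretches are shown for the 3 genes whose levels or ratio set the tissues apart most below, the receptor pair *Itgav* and *Itgb5* and the adaptor *Gulp1*. They run 5′ to 3′ on the strand of the gene and stop before the first annotated exon, which for *Gulp1* leaves 90 bases. Capitals mark the GC box GGGCGG or its reverse complement CCGCCC.
Itgav (chr2:83724147-83724396, forward strand): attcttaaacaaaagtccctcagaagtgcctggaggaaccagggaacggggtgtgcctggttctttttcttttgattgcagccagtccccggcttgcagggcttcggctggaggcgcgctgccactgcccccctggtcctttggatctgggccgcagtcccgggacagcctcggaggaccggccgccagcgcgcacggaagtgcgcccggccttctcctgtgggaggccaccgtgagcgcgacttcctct
Itgb5 (chr16:33829415-33829664, forward strand): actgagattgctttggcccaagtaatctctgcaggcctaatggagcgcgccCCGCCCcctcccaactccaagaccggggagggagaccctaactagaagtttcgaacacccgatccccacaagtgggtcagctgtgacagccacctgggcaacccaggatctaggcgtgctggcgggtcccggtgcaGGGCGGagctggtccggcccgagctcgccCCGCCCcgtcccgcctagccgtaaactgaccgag
Gulp1 (chr1:44551421-44551510, forward strand): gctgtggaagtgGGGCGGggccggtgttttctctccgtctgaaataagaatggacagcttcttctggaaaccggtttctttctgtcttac

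The window of *Itgb5* held 3 GC boxes, that of *Gulp1* held 1 and that of *Itgav* held 0. In all, 6 of the 8 windows of these genes held GGGCGG on either strand, beside 32.7% of the 32851 windows of all genes. The share of G and C was 56.8% to 71.6% in the 8 windows, beside a median of 52.4% over all windows, and its part in this count was not tested. The E-box CACGTG and the letters TAATCC, searched on both strands, were in 0 of the 8 windows, beside 6.02% and 6.25% of all windows. The E-box CATGTG was in 2 of 8, at *Dock1* and at the inner start of *Myo7a*, beside 12.3%. These matches describe letters in the windows and not binding.

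In B6 WT libraries, per exon length, the tetraspanin gene *Cd81* was the most abundant of the 10 in RPE and *Rac1* in BMDMs. Levels are RPKM, reads scaled to exon length and to the reads of the library, given here as a description with no test, since the tissues were normalized in separate tables. *Cd81* stood at 105 ± 7.72 RPKM (SD, n = 6) in RPE and 104 ± 2.62 (n = 3) in BMDMs, with overlapping libraries. *Gulp1* showed the widest gap. It reached 24.5 ± 2.71 RPKM in B6 WT RPE, while the 3 B6 WT BMDM libraries held 0 reads and all 12 BMDM libraries together 1 read. Against a floor of 3 reads over the 3 BMDM libraries, *Gulp1* was at least 2170-fold higher in RPE.

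The integrin alpha subunit gene *Itgav* followed, at 53.2 ± 2.41 RPKM in B6 WT RPE and 10.7 ± 1.21 in BMDMs, 4.95 times as high in RPE. *Ptk2* was 2.86 times and *Mfge8* 2.13 times as high in RPE. The order was the other way for *Itgb3*, at 4.02 ± 0.135 RPKM in BMDMs and 1.51 ± 0.290 in RPE, 2.66 times as high in BMDMs. *Rac1* was 1.58 times, *Itgb5* 1.31 times and *Myo7a* 1.18 times as high in BMDMs. Thus 4 genes were higher in RPE and 4 in BMDMs with no overlap between B6 WT libraries. The libraries overlapped for *Cd81* and *Dock1*. The share of all genes apart between the tissues was not counted, so this split is not shown to be particular to these genes.

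**Figure D1:**
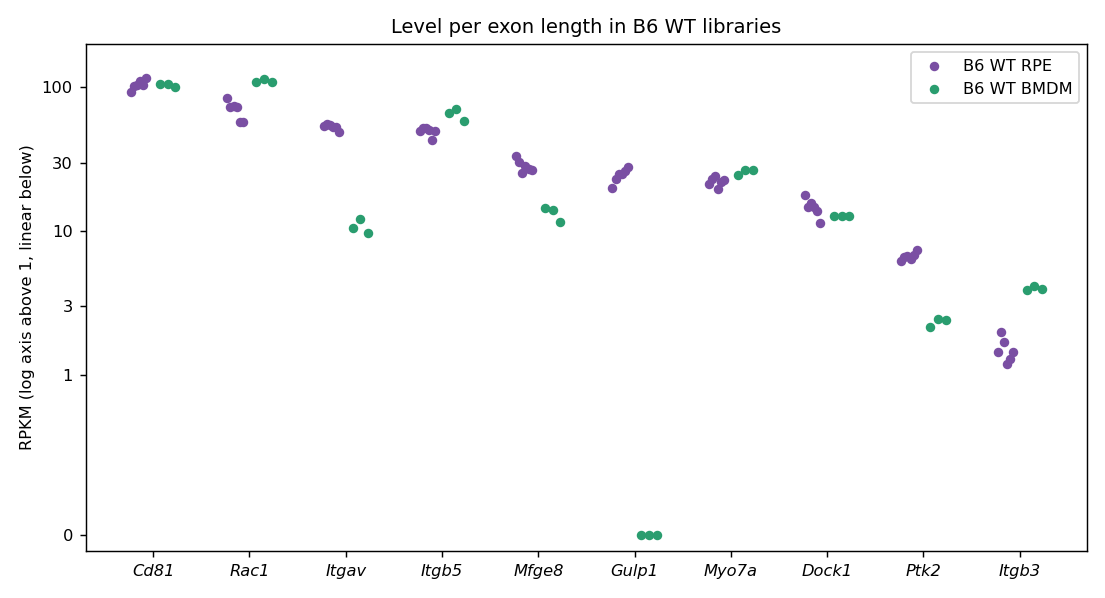
Level of each gene per exon length (RPKM, logarithmic above 1 and linear below) in the 6 B6 WT RPE and 3 B6 WT BMDM libraries, 1 point per library, genes in order of their RPE mean. *Gulp1* lies at 0 in the 3 BMDM libraries, *Itgav*, *Mfge8* and *Ptk2* are higher in RPE, and *Itgb3* is higher in BMDMs.

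Ordered by level in B6 WT RPE, *Cd81* was followed by *Rac1*, *Itgav*, *Itgb5*, *Mfge8*, *Gulp1*, *Myo7a*, *Dock1*, *Ptk2* and *Itgb3*. In this order *Itgav* overlapped *Itgb5*, *Mfge8* overlapped *Gulp1*, and *Gulp1* overlapped *Myo7a*, and the other neighbours were apart in these libraries. In B6 WT BMDMs the order was *Rac1*, *Cd81*, *Itgb5*, *Myo7a*, *Mfge8*, *Dock1*, *Itgav*, *Itgb3*, *Ptk2* and *Gulp1*, in which *Mfge8* and *Dock1* overlapped. The pairing of the receptor subunits differed as well. Over the 18 RPE libraries the RPKM of *Itgav* divided by that of *Itgb5* had a median of 0.996 (0.692 to 1.23), and over the 12 BMDM libraries a median of 0.157 (0.132 to 0.212). *Itgb5*, the beta subunit of the outer segment receptor, exceeded *Itgb3*, the beta subunit better known from platelets and osteoclasts, by a median factor of 31.7 (23.2 to 50.02) in RPE and 16.5 (11.3 to 25.9) in BMDMs. Both ratios are descriptions of transcripts per length.

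In BMDMs, *Cd81* was lower in all 3 knockout lines and *Itgb3* was higher in *Mertk*-/-V1 and lower in *Mertk*-/-V3. These were the only calls against B6 WT among the 9 genes tested, which were all but *Gulp1*. A call means an adjusted p under 0.05 from limma with Benjamini-Hochberg adjustment over the 13420 genes tested. Each was a change of at most 0.45 on the log2 scale. Of the 9 genes, 2 were called in *Mertk*-/-V1, beside 7.07% of all genes tested, 1 in *Mertk*-/-V2, beside 4.61%, and 2 in *Mertk*-/-V3, beside 1.17%.

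*Cd81*, which encodes a tetraspanin that organizes integrins and other receptors in the membrane, was counted at 6203, 6120 and 6026 in the 3 B6 WT BMDM libraries. The *Mertk*-/-V1 libraries held 5497, 5239 and 5293, those of *Mertk*-/-V2 5283, 5462 and 5277, and those of *Mertk*-/-V3 5182, 5067 and 5017. All 9 knockout libraries lay below all 3 of B6 WT. *Cd81* fell by 0.20 on the log2 scale in *Mertk*-/-V1 (SE 0.04, adjusted p = 0.00745 from limma), which is a change of -12.7%. It fell by 0.20 in *Mertk*-/-V2 (SE 0.04, adjusted p = 0.0107) and by 0.27 in *Mertk*-/-V3 (SE 0.04, adjusted p = 0.00271), changes of -12.7% and -16.8%. The 3 comparisons share the same B6 WT libraries. *Mertk*-/-V1 was not separated from the mean of the other lines (log2 difference 0.04, SE 0.03, adjusted p = 0.706 from limma). The call in *Mertk*-/-V2 was lost without B6 WT replicate 1 (adjusted p = 0.0569) or replicate 2 (adjusted p = 0.0516), and in a fit of B6 WT and *Mertk*-/-V2 alone (adjusted p = 0.130).

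*Itgb3* encodes the beta subunit that pairs with ITGAV in the vitronectin receptor, and its level split the knockout lines. B6 WT BMDMs held 474, 494 and 482 normalized counts, *Mertk*-/-V1 611, 622 and 577, *Mertk*-/-V2 479, 436 and 397, and *Mertk*-/-V3 357, 389 and 320. The *Mertk*-/-V1 libraries lay above every other BMDM library and the *Mertk*-/-V3 libraries below every B6 WT and *Mertk*-/-V2 library, while *Mertk*-/-V2 overlapped B6 WT. *Itgb3* rose by 0.32 on the log2 scale in *Mertk*-/-V1 against B6 WT (SE 0.08, adjusted p = 0.0369 from limma) and fell by 0.45 in *Mertk*-/-V3 (SE 0.08, adjusted p = 0.0224). In *Mertk*-/-V2 the log2 difference was -0.15 (SE 0.08, adjusted p = 0.332).

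Compared directly, *Itgb3* was higher in *Mertk*-/-V1 than in the other 2 lines on average by 0.62 on the log2 scale (SE 0.07, adjusted p = 0.000322 from limma), a ratio of 1.53. It was the only one of the 9 genes called in this comparison, in which 0.991% of all genes were called. This call held without each of the 9 libraries in turn, with log2 differences of 0.58 to 0.65. The calls against B6 WT held less well. The call in *Mertk*-/-V1 was lost without any 1 of its 6 libraries (adjusted p = 0.0593 to 0.134, log2 fold change 0.30 to 0.35) and with no filter on low values (adjusted p = 0.0561). The call in *Mertk*-/-V3 was lost without B6 WT replicate 1 or 2 or *Mertk*-/-V3 replicate 1 or 3 (adjusted p = 0.0842 to 0.126), with log2 fold changes of -0.37 to -0.51 over all 6.

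The markers of osteoclasts, which are macrophage relatives rich in the ITGAV and ITGB3 pair, were low in BMDMs. Over *Ctsk*, *Acp5*, *Calcr*, *Dcstamp* and *Ocstamp*, the summed normalized counts in BMDMs were 69.3 to 72.0 in *Mertk*-/-V1, 34.5 to 47.3 in B6 WT, 32.0 to 36.0 in *Mertk*-/-V3 and 51.4 to 66.7 in *Mertk*-/-V2. Thus the sums of *Mertk*-/-V1 and *Mertk*-/-V2 lay above B6 WT and those of *Mertk*-/-V3 overlapped it. *Calcr* averaged under 1 in every BMDM group, and *Ocstamp* in those of B6 WT, *Mertk*-/-V2 and *Mertk*-/-V3. The 8 endothelial markers, led by *Vwf*, summed to 965 to 1222 in B6 WT, 1504 to 1841 in *Mertk*-/-V1, 1078 to 1233 in *Mertk*-/-V3 and 1352 to 1469 in *Mertk*-/-V2. *Vwf* alone averaged 781 in B6 WT and 1324 in *Mertk*-/-V1, and 4 of the 8 averaged at least 10. *Cldn5* and *Emcn* averaged under 1 in every BMDM group, and *Tie1* in all but *Mertk*-/-V3, so these sums do not show that endothelial cells were present. The sums of 5 platelet markers, nearly all *Pf4*, were 5431 to 7311 over the 12 libraries, with 5648 to 6423 in *Mertk*-/-V1 and 6786 to 7311 in *Mertk*-/-V3. Whether such cells were present, and their part in the level of *Itgb3*, was not tested.

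The other 7 genes tested in BMDMs were not called in any of the 4 comparisons with all libraries at equal weight in limma. *Ptk2*, the gene of focal adhesion kinase, was counted at 517, 578 and 590 in B6 WT, 662, 629 and 668 in *Mertk*-/-V1 and 634, 714 and 693 in *Mertk*-/-V3. Both of these lines lay above B6 WT without overlap, with log2 fold changes of 0.22 ± 0.07 (SE, limma adjusted p = 0.0758) and 0.28 ± 0.07 (adjusted p = 0.0750). *Ptk2* was called in *Mertk*-/-V3 with DESeq2 (adjusted p = 0.0283), and in *Mertk*-/-V3 and *Mertk*-/-V1 with array quality weights in limma (adjusted p = 0.00537 and 0.0171). The libraries of *Mertk*-/-V2, at 647, 593 and 576, overlapped B6 WT. *Myo7a*, the gene of the motor myosin VIIa, was counted at 4329, 4547 and 4753 in B6 WT and at 5063, 4917 and 5186 in *Mertk*-/-V2, again without overlap and short of a call (log2 fold change 0.15 ± 0.05 SE, limma adjusted p = 0.0743). It was called there with DESeq2 (adjusted p = 0.0337) and, in limma, without B6 WT replicate 3 (adjusted p = 0.0493), and in *Mertk*-/-V3 with array quality weights (adjusted p = 0.0464).

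*Dock1* and *Rac1*, the exchange factor and its GTPase, varied little in BMDMs. *Dock1* ranged from 2328 to 2608 and *Rac1* from 9428 to 10315 over the 12 libraries, with log2 fold changes of -0.07 to 0.05 in the 3 knockouts. The receptor pair and its ligand varied most within 1 group. *Mertk*-/-V2 replicate 3 held 3983 normalized counts of *Itgav*, 6199 of *Itgb5* and 1576 of *Mfge8*, and the other 11 BMDM libraries held 1711 to 2603, 4009 to 5054 and 1119 to 1398. Leaving it out changed no call among the 9 genes. Libraries of a line and of B6 WT did not overlap for 3 of the 9 genes in *Mertk*-/-V1, beside 30.9% of all genes, for 3 in *Mertk*-/-V2, beside 22.7%, and for 5 in *Mertk*-/-V3, beside 25.4%.

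**Figure D2:**
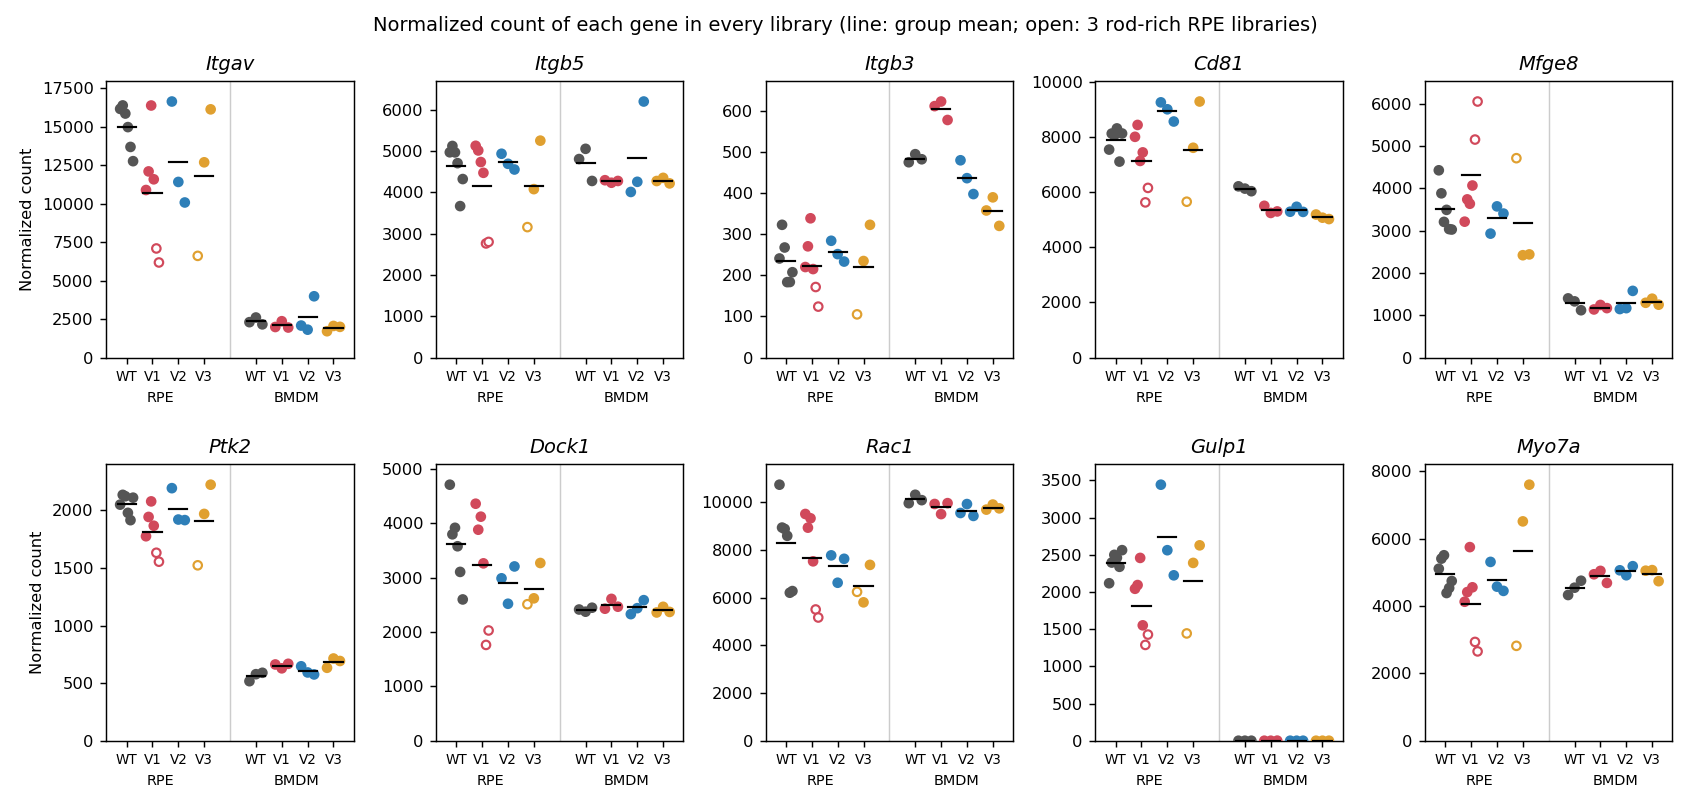
Normalized count of each gene (linear axes from 0) in every RPE library (left of each panel) and BMDM library (right), 1 point per library, with the group mean as a line and the 3 rod-rich RPE libraries as open points. In BMDMs all knockout libraries of *Cd81* lie below B6 WT and *Itgb3* is highest in *Mertk*-/-V1 and lowest in *Mertk*-/-V3, while in RPE the open points lie lowest for 8 genes and highest for *Mfge8*.

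**Figure D3:**
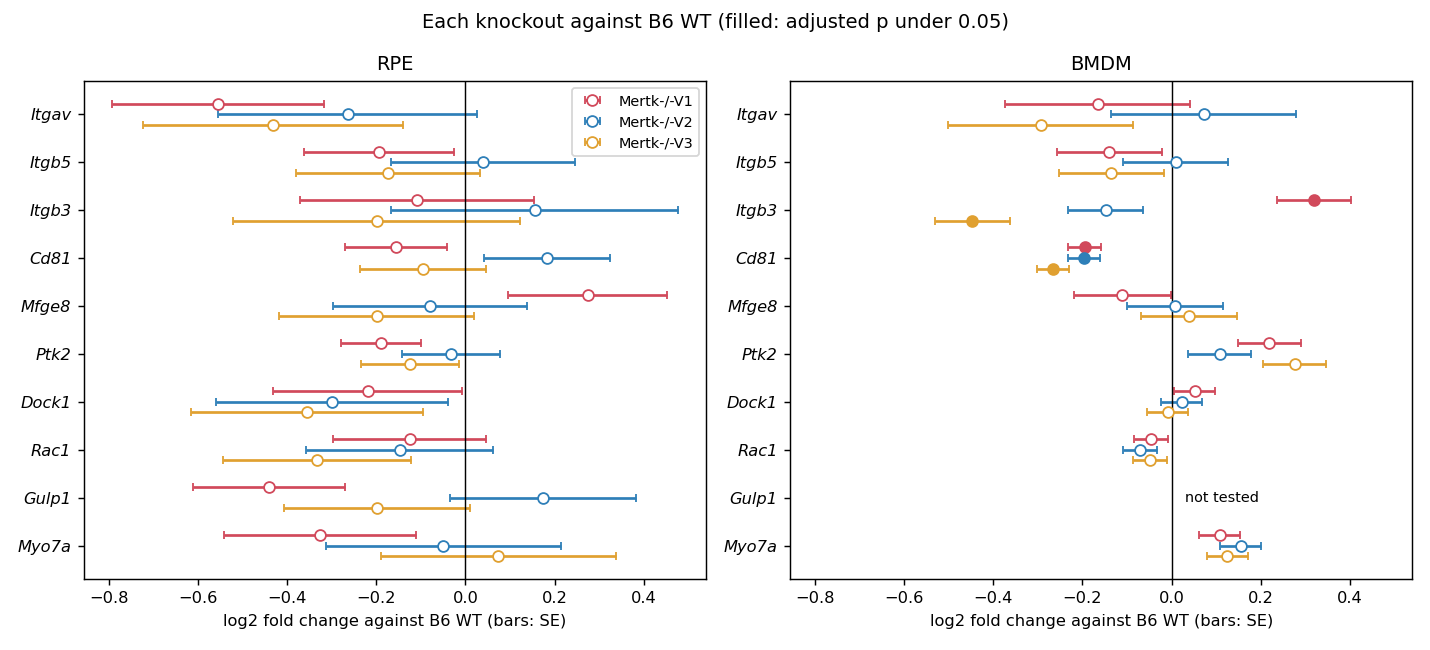
log2 fold change of each gene in each knockout line against B6 WT, with standard errors as bars, in RPE (left) and BMDMs (right). Filled points, which had an adjusted p under 0.05, are present for *Cd81* in 3 lines and *Itgb3* in 2 in BMDMs and for no gene in RPE, where the standard errors are wider.

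In RPE, 0 of the 10 genes were called in any knockout line against B6 WT or in *Mertk*-/-V1 against the mean of the others by limma, and edgeR and DESeq2 gave 0 as well. Calls over all 18832 genes tested were 0.388% in *Mertk*-/-V1, 0.069% in each of the other lines, and 0.207% in the direct comparison. At an unadjusted p under 0.05, 2 of the 10 genes passed in *Mertk*-/-V1 (*Gulp1* and *Itgav*), beside 6.81% of all genes, and 2 in the direct comparison (*Gulp1* and *Mfge8*), beside 9.56%. None passed in *Mertk*-/-V2 or *Mertk*-/-V3, beside 5.47% and 11.1%. The median log2 fold change of the 10 genes was -0.19 in *Mertk*-/-V1 and -0.20 in *Mertk*-/-V3, beside 0.02 and -0.01 over all genes tested, and -0.04 in *Mertk*-/-V2, beside 0.02. Standard errors were 0.09 to 0.32, against 0.04 to 0.21 in BMDMs.

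*Itgav* had the lowest log2 fold change of the 10 in *Mertk*-/-V1 and in *Mertk*-/-V3 RPE. B6 WT libraries held 12766 to 16390 (median 15421) and *Mertk*-/-V1 libraries 6180 to 16385 (median 11239), which overlap (log2 fold change -0.55 ± 0.24 SE, limma adjusted p = 0.681). *Mertk*-/-V2 held 16644, 11415 and 10080, and *Mertk*-/-V3 6610, 12692 and 16135, with 1 library above, 4 below and 1 inside the B6 WT range. *Gulp1* was counted at 2117 to 2562 (median 2428) in B6 WT and 1288 to 2458 (median 1797) in *Mertk*-/-V1 (log2 fold change -0.44 ± 0.17 SE, limma adjusted p = 0.597). *Mertk*-/-V2 held 3442, 2561 and 2224 and *Mertk*-/-V3 1442, 2390 and 2627.

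*Mfge8*, the gene of the bridging ligand, was the only one of the 10 with a positive difference in *Mertk*-/-V1. It was counted at 3027 to 4427 (median 3349) in B6 WT and 3212 to 6053 (median 3903) in *Mertk*-/-V1 (log2 fold change 0.27 ± 0.18 SE, limma adjusted p = 0.819). *Myo7a* was counted at 4388 to 5511 (median 4927) in B6 WT and 2654 to 5752 (median 4273) in *Mertk*-/-V1. In *Mertk*-/-V3 it was at 2819, 6517 and 7607, the lowest of these below and the others above every B6 WT library. *Cd81* in *Mertk*-/-V2 RPE, at 9246, 8994 and 8551, lay above all 6 B6 WT libraries (7099 to 8301) without a call (log2 fold change 0.18 ± 0.14 SE, limma adjusted p = 0.962). It was the only gene of the 10 without overlap with B6 WT in RPE, where 5.66% of all genes were apart in this comparison, 1.09% in *Mertk*-/-V1 and 4.32% in *Mertk*-/-V3.

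Many of the lowest values in RPE came from the same libraries. Of the 18 RPE libraries, the 3 rod-rich ones were the 3 lowest for 8 of the 10 genes and the 3 highest for *Mfge8*. For *Rac1* they held 5167 to 6244, within the lowest 5. How many of all genes were placed in this way was not counted, so the pattern is not shown to be particular to these genes. *Itgav* was at 6180 to 7091 in the 3 libraries and 10080 to 16644 in the other 15, *Itgb5* at 2763 to 3158 and 3667 to 5252, and *Myo7a* at 2654 to 2935 and 4129 to 7607. *Mfge8* was at 4713 to 6053 and 2419 to 4427. The summed levels of the 9 macrophage markers were lower in the 3 libraries too, at 5967 to 6147 against 7697 to 12893, and those of 5 cone markers were 5102 to 13092 against 855 to 7396. How far the makeup of the tissue set these levels was not tested.

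**Figure D4:**
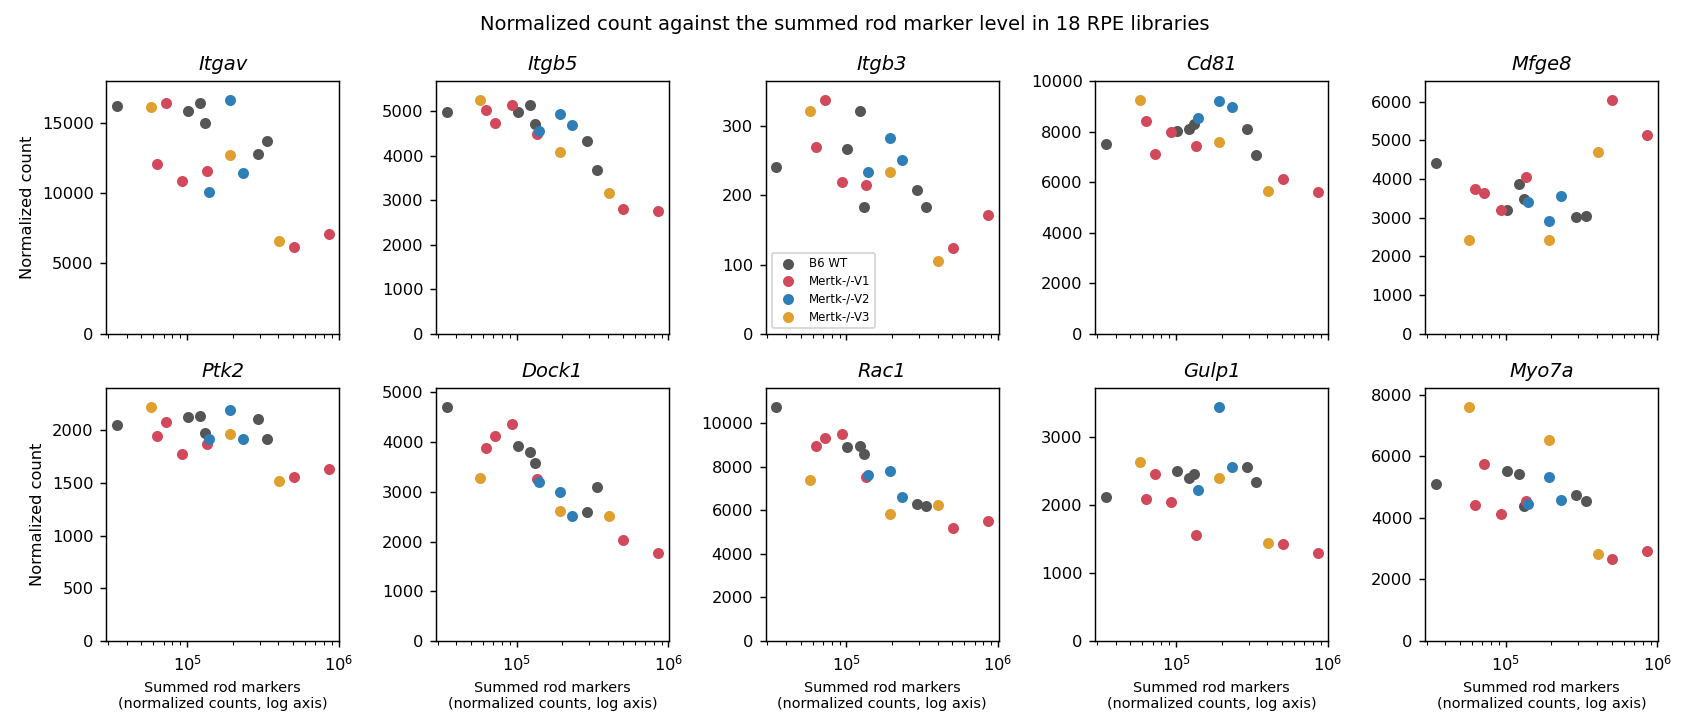
Normalized count of each gene (linear axis from 0) against the summed normalized counts of 10 rod markers (logarithmic axis) in the 18 RPE libraries, 1 point per library, coloured by genotype. The 3 libraries with the highest rod sums, 402864 to 856662, have the lowest values of *Itgav*, *Itgb5*, *Itgb3*, *Cd81*, *Ptk2*, *Dock1*, *Gulp1* and *Myo7a* and the highest of *Mfge8*.

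Without the 3 rod-rich libraries, 0 of the 10 genes were called in any RPE comparison, and the differences in *Mertk*-/-V1 shrank. That of *Itgav* became -0.25 (SE 0.15), that of *Gulp1* -0.25 (SE 0.13), that of *Myo7a* -0.08 (SE 0.10) and that of *Mfge8* 0.07 (SE 0.11) on the log2 scale. *Itgb5*, *Itgb3*, *Dock1* and *Rac1* changed sign in *Mertk*-/-V1, to between 0.07 and 0.16. In *Mertk*-/-V3 a pair of genes moved the other way. With its 2 remaining libraries, *Mfge8* came to -0.52 (SE 0.14, adjusted p = 0.126 from limma) and *Myo7a* to 0.51 (SE 0.13, adjusted p = 0.114).

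B6 WT and *Mertk*-/-V1 RPE were also sampled as replicates 1 to 3 and 4 to 6, and the genes differed between these sets within a genotype. In B6 WT, *Itgav*, *Itgb5*, *Itgb3*, *Dock1*, *Rac1* and *Myo7a* were higher in each of replicates 1 to 3 than in each of replicates 4 to 6, 6 of the 10 genes beside 35.9% of all genes apart between these sets. In *Mertk*-/-V1 the sets were apart for 6 of the 10 as well (*Itgb5*, *Itgb3*, *Mfge8*, *Dock1*, *Rac1* and *Gulp1*), beside 41.7%. In B6 WT, *Rac1* was at 8881 to 10738 and 6207 to 8594, and *Dock1* at 3796 to 4709 and 2598 to 3576. The rod markers summed to 34423 to 122387 in the first set of B6 WT and 131318 to 335806 in the second. Both rod-rich *Mertk*-/-V1 libraries are in the second set.

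*Itgav* in *Mertk*-/-V1 differed from B6 WT by -0.32 (SE 0.15) on the log2 scale among replicates 1 to 3 and by -0.79 (SE 0.25) among replicates 4 to 6. *Gulp1* came to -0.09 (SE 0.10) and -0.79 (SE 0.12), and *Mfge8* to -0.11 (SE 0.12) and 0.66 (SE 0.17). None of these was called (adjusted p = 0.449 to 0.857 from limma). In replicates 4 to 6, *Gulp1* was at 2338, 2461 and 2562 in B6 WT and at 1288, 1427 and 1551 in *Mertk*-/-V1, without overlap. The highest of the latter was replicate 4, whose rod markers summed to 135532 and RPE markers to 560007, and these sums were 131318 and 826264 in B6 WT replicate 4. The part of tissue makeup in this difference was not tested. How many of all genes were apart between these libraries was not counted, so the lack of overlap is not shown to be particular to *Gulp1*. *Mertk*-/-V2 and *Mertk*-/-V3 have only replicates numbered 1 to 3. With the set as a term, which takes these numbers as the first set, *Rac1* and *Dock1* were called in *Mertk*-/-V3, falling by 0.60 (SE 0.14, adjusted p = 0.0117 from limma) and by 0.68 (SE 0.19, adjusted p = 0.0203). These are 2 of 10 genes, and 25.2% of all genes tested were called in that fit. Nothing in the labels ties the numbers to a shared preparation, so set and genotype cannot be told apart in these lines.

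The effect of each knockout line was compared between tissues for the 9 genes measured in both, as 1 interaction term in edgeR. None passed an adjusted p of 0.05 in any line, with 1 gene in each (*Ptk2*, *Cd81* and *Ptk2*) at an unadjusted p under 0.05, beside 9.34%, 11.7% and 6% of all genes. limma-voom also called none of the 9. Calls over all 12513 genes came to 0.464%, 0.168% and 0.048%. The lowest adjusted p in *Mertk*-/-V1 was that of *Ptk2*, with a log2 effect lower in RPE than in BMDMs by -0.38 (adjusted p = 0.223 from edgeR). For *Itgb3* the RPE effect minus the BMDM effect was -0.37 in *Mertk*-/-V1 (adjusted p = 0.816) and 0.39 in *Mertk*-/-V3 (adjusted p = 0.810). For *Cd81* it was 0.07, 0.37 and 0.24 in the 3 lines (adjusted p = 0.931, 0.361 and 0.792). The differences seen in BMDMs are thus not shown to be particular to BMDMs.

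Around these genes, 116 others of the same machinery were read in 5 lists. Each list held 0 to 2 BMDM calls per line, among 11 to 27 genes tested. Over all genes tested in BMDMs, limma called 7.07% with *Mertk*-/-V1 against B6 WT, 4.61% with *Mertk*-/-V2 and 1.17% with *Mertk*-/-V3. The lists were not tested against these shares, so their BMDM calls are not shown to be particular to this machinery. Of 14 integrin partners and ligands, 1 of the 11 tested in BMDMs was called, in *Mertk*-/-V3. This was *Itga8*, the alpha subunit that pairs with ITGB1, which fell by 0.76 (SE 0.16, adjusted p = 0.0420 from limma), from 669 ± 77.4 to 393 ± 25.8 normalized counts (SD, n = 3 each). The call was lost in 5 of the 6 fits without 1 library (adjusted p up to 0.203). Of 24 FAK and Src adaptors, 18 were tested in BMDMs. *Vcl*, the gene of the adhesion protein vinculin, rose by 0.39 in *Mertk*-/-V1 (SE 0.07, adjusted p = 0.00745), from 933 ± 61.6 to 1224 ± 125, and was called without each library in turn. *Lyn*, a Src family kinase, fell by 0.20 in *Mertk*-/-V3 (SE 0.04, adjusted p = 0.0420), and this call was lost without any 1 of its 6 libraries (adjusted p = 0.0566 to 0.188).

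Of the 27 genes of the Rac module, *Trio*, an exchange factor for RAC1 and RHOG, rose in BMDMs in 2 lines. It stood at 2618 ± 87.9 in B6 WT, 3193 ± 184 in *Mertk*-/-V1 (log2 fold change 0.29 ± 0.05 SE, limma adjusted p = 0.00649) and 3060 ± 180 in *Mertk*-/-V2 (0.22, SE 0.05, adjusted p = 0.0288). The first call held without each library in turn, and the second in 3 of 6 such fits. *Brk1*, a small subunit of the WAVE complex, fell by 0.17 in *Mertk*-/-V1 (SE 0.05, adjusted p = 0.0437) and kept its call in 1 of 6 fits. In RPE the Rac exchange factor *Vav1*, best known from blood cells, rose in *Mertk*-/-V1. Its 6 libraries held 42.7 to 73.1 normalized counts, all above the 20.4 to 33.3 of B6 WT (log2 fold change 0.99 ± 0.18 SE, adjusted p = 0.0139). It was called without each library in turn and without the 3 rod-rich libraries (adjusted p = 0.0492), but not in a fit of B6 WT and *Mertk*-/-V1 alone (adjusted p = 0.0632) or within replicates 1 to 3 (adjusted p = 0.299) or 4 to 6 (adjusted p = 0.557). In the RPE libraries of *Mertk*-/-V1 and B6 WT, the macrophage markers summed to 5967 to 11917 and 7697 to 12893, the 4 dendritic cell markers to 189 to 350 and 146 to 291, and the 5 neutrophil markers to 7.29 to 1045 and 24.9 to 113. The part of blood cells in the level of *Vav1* was not tested.

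Of the 19 engulfment receptors and adaptors listed with *Gulp1*, *Abca1* was the only gene of the 5 lists called lower in RPE. This cholesterol transporter, related to a worm engulfment gene, was at 2629 to 3338 in B6 WT and 1112 to 1831 in *Mertk*-/-V1 (log2 fold change -1.04 ± 0.17 SE, limma adjusted p = 0.00753), without overlap. It was called without each library in turn, without the 3 rod-rich libraries (log2 fold change -0.85, adjusted p = 0.00107) and among replicates 1 to 3 alone (-0.78, adjusted p = 0.0386), but not among replicates 4 to 6 alone (-1.29, adjusted p = 0.449). The RPE markers in replicates 1 to 3 summed to 640223 to 757380 in *Mertk*-/-V1 and 820103 to 996986 in B6 WT, and their part in the fall was not tested. Of the 19, 15 were tested in BMDMs. There *Pear1*, a relative of *Megf10*, fell in *Mertk*-/-V1 by 1.03 ± 0.20 (SE, limma adjusted p = 0.0104). Its normalized count was 36.9 ± 5.07 (SD) in B6 WT and 17.4 ± 1.37 in the line. This call was lost in 2 of 6 fits without a library. *Jmjd6* fell by 0.22 in *Mertk*-/-V1 and 0.24 in *Mertk*-/-V2, and the small GTPase gene *Arf6* by 0.14 in *Mertk*-/-V2 (adjusted p = 0.0385, 0.0377 and 0.0359). These calls held in 1, 2 and 1 of 6 fits without a library.

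Of 32 myosin VIIa partners and phagosome transport genes, 26 were tested in BMDMs. *Dynll1*, a light chain of dynein, fell by 0.25 in *Mertk*-/-V1 (SE 0.05, adjusted p = 0.0166 from limma) and by 0.37 in *Mertk*-/-V2 (SE 0.05, adjusted p = 0.00194), from 2018 ± 73.2 in B6 WT to 1700 ± 11.3 and 1559 ± 87.5. The second call held without each library in turn and the first in 1 of 6 such fits. *Rab38*, a GTPase of melanosome transport, rose by 1.13 in *Mertk*-/-V1 (SE 0.31, adjusted p = 0.0413) from 8.92 ± 3.24 to 20.1 ± 2.84, and *Anxa5*, a phosphatidylserine-binding annexin, fell by 0.16 in *Mertk*-/-V2 (SE 0.04, adjusted p = 0.0427). The first of these held in 1 and the second in 3 of 6 fits without a library. No other gene of the 5 lists was called in a knockout line against B6 WT. In RPE, 0 were called in *Mertk*-/-V2 or *Mertk*-/-V3 by limma, with 2 and 10 of the 114 tested at an unadjusted p under 0.05, beside 5.47% and 11.1% of all genes. The median log2 fold change of the lists ranged from -0.23 to 0.10 in RPE and from -0.11 to 0.05 in BMDMs, beside -0.01 to 0.02 and 0.00 over all genes.

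For each gene, the genes with the nearest profile were found over the 8 means of tissue and genotype, among 12513 genes, by the root-mean-square difference of centred log2 levels. For *Rac1* these were *Cr1l* (0.033) and *Snap29* (0.035), for *Itgb5* *Uxs1* (0.035) and *Rrp8* (0.039), and for *Cd81* *1110019D14Rik* (0.039) and *Ippk* (0.046). For *Myo7a* they were *Eepd1* (0.043) and *Tfeb* (0.066), for *Dock1* *1700056E22Rik* (0.046) and *Tmem203* (0.051), and for *Ptk2* *Pitpnc1* (0.052) and *Ganc* (0.060). For *Mfge8* they were *Zfp7* (0.056) and *Myb* (0.068), and for *Gulp1* *Mest* (0.089) and *Fam13a* (0.10). The least close were those of *Itgav*, *Utrn* (0.11) and *Galnt10* (0.11), and of *Itgb3*, *Fbxo48* (0.14) and *Bcl2l11* (0.14). None of these is one of the 10 genes.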

How the data were processed

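RNA of 18 RPE and 12 BMDM libraries was sequenced in paired-end reads, which the authors trimmed with btrim and mapped to GRCm38 with STAR before running DESeq2. The read counter, its use of strand, the annotation release and the versions are not given in the sources used here. For each tissue the authors deposited a table of gene signal, the count of a gene divided by the size factor of the library. Dividing by the smallest value above 0 gave whole reads for 100% of values (largest deviation 0.0005), and 0 sample columns were left unused. Of 55573 genes, 55480 matched GENCODE M21 and 240 had no name. The floor used for *Gulp1* covers counting error only. SDs and limma standard errors describe the spread between libraries.

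limma 3.58.1 in R 4.3.3 was run on log2(value + 1) fitting the 4 genotypes of each tissue together, for genes with a mean of at least 10, so fold changes of low genes are understated. The tissue difference was an interaction term in edgeR 4.0.16 on the recovered reads. Each replicate is labelled as a separate biological replicate. edgeR on the recovered reads called 945, 607 and 172 genes in BMDMs and 75, 11 and 10 in RPE for *Mertk*-/-V1, V2 and V3 against B6 WT at an adjusted p under 0.05. DESeq2 1.42.0 was an alternative. The fits of *Mertk*-/-V1 against B6 WT and of its tissue difference were tried on simulated data with log2 changes of 2. Recovery of changes as small as those called among the 10 genes was not tested. The 10 genes, the 5 lists and the tests were chosen with earlier results of these data known, so they are no independent support. The text names the 10 genes, *Mertk*, the 2 nearest profiles of each gene, and up to 4 called genes of each list per comparison. Promoter windows are those of RefSeq, and levels per length used the union of GENCODE exons. Tables and figures were made with Python 3.11.15.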

Additional observations from a re-analysis of the deposited data

Results flagged for a closer look

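In *Mertk*-/-V1 RPE, 1 library lay far from the other 5 in the RPKM of *Itgav* divided by that of *Itgb5*. Replicate 3 had a ratio of 1.14 and the next library 0.857, a gap of 0.651 of the whole range of the group, above Dixon's 95% critical value for 6 libraries. In B6 WT RPE the ratio was 0.977 to 1.23. Replicate 3 of *Mertk*-/-V1 thus lay inside the B6 WT range, and the other 5, at 0.702 to 0.857, lay below it. This difference in ratio was not tested. Replicate 3 held 16385 normalized counts of *Itgav* and 4733 of *Itgb5*. Its 5 neutrophil markers summed to 1045, against 7.29 to 113 in the other 17 RPE libraries, and its *Mertk* count, 1717, was the highest of the 6 *Mertk*-/-V1 RPE libraries. The part of this library in the results is covered by the fits without it, in which no gene of the 10 was called. In all, 24 groups of 6 were tested in this way, and chance flags about 1 group in 20.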

How the results depend on the processing

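Calls of *Cd81* in *Mertk*-/-V1 and *Mertk*-/-V3 BMDMs and of *Itgb3* in *Mertk*-/-V1 against the other lines held under all 8 alternatives that left no library out and all fits without a library. The number of the 10 genes called changed in the following cases, and the cause was not tested. With array quality weights, whose estimation stopped short of its tolerance in some fits, it was 6 in *Mertk*-/-V3 RPE, 4 in *Mertk*-/-V1 RPE against the other lines and 4 in *Mertk*-/-V3 BMDMs, in place of 0, 0 and 2, in fits that called 66.9%, 28.9% and 12.6% of all genes, and 3 in *Mertk*-/-V1 BMDMs, beside 20.6%. With the replicate set as a term it was 2 in *Mertk*-/-V3 RPE, beside 25.2% of all genes. In BMDMs it was 1 in *Mertk*-/-V1 with no filter, beside 2.19% of all genes. In *Mertk*-/-V2 it was 0 in the fit of only the groups compared, beside 0.515%, and 2 with DESeq2, beside 7.92%. DESeq2 gave 3 in *Mertk*-/-V3, beside 3.48%. Without the 3 rod-rich libraries, an alternative chosen after seeing the data, *Cd81* was the 1 gene whose *Mertk*-/-V2 effect differed between tissues, beside 1.14% of all genes. Without 1 library at a time the number called was 1 to 1 in *Mertk*-/-V1, 0 to 2 in *Mertk*-/-V2, 1 to 2 in *Mertk*-/-V3 and 1 to 1 in *Mertk*-/-V1 against the others in BMDMs, and 0 in every RPE comparison and tissue difference. No called gene changed sign. Replicate numbers are shared by the groups but were not taken to pair the libraries. Deviations of same-numbered libraries correlated at -0.46 to 0.72 in RPE (median 0.151, over 0.1 in 13 of 21 pairs, against a median of -0.003 and 36 of 96 for other pairs) and at -0.30 to 0.36 in BMDMs (4 of 18 over 0.1), and the closest library of another genotype had the same number for 3 of 18 and 5 of 12 libraries. With the replicate number as a block, 2 genes (*Rac1* and *Dock1*) were called in *Mertk*-/-V2 RPE, 2 in *Mertk*-/-V3 RPE and 2 in *Mertk*-/-V1 RPE against the other lines, beside 3.75%, 29.8% and 12.4% of all genes, and 1 and 2 in the tissue differences of *Mertk*-/-V2 and *Mertk*-/-V3, beside 2.88% and 15.8%. The block changed no other count by more than 1.5 times. A depth of 14137666 reads or more leaves *Gulp1* in BMDMs as the only one of the 10 genes near the limit of detection.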
